A study of Mus musculus with 96 samples.

Results

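Mouse embryos collected 4 to 6 h after fertilization were compared with embryos collected at 2 h, over every gene row of the deposited table. The 4 to 6 h group holds 5 of the 96 libraries of the study, 2 labelled 4 h and 3 labelled 6 h, whose titles run in 1 numbering from 1 to 5. The 2 h group holds 5 libraries, also numbered 1 to 5. All 10 are C57BL/6J embryos from superovulated females mated to C57BL/6J males, and none was treated. Embryos were freed of cumulus cells with hyaluronidase, cultured in KSOM medium, lysed separately and made into SMART-Seq v4 and Nextera XT libraries. cDNA of every stage between 0 h and the late 2-cell embryo was made in 1 cohort, whereas oocytes were processed apart. The labels do not say which embryos shared a mother, so p-values measure only the spread between these libraries. Of 55401 gene rows, 8939 held enough counts to be tested.

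At these hours a fertilized egg leaves its arrest in the second meiotic division, extrudes the second polar body and builds a maternal and a paternal pronucleus. Its own genome is largely silent, so most messages were made by the oocyte and are stored, translated or destroyed on a schedule. The schedule works largely through the poly(A) tail: a cytoplasmic polyadenylation element near the 3′ end lets CPEB proteins lengthen it, and the CCR4-NOT deadenylase shortens it. SMART-Seq v4 copies RNA from its tail and values are shares of a library, so a change in the amount of a message, a change in its tail and a change in total RNA per embryo cannot be told apart.

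The comparison called 1523 genes, 17.0% of the 8939 tested, at an adjusted p below 0.05 (edgeR's quasi-likelihood test, Benjamini-Hochberg). At 4 to 6 h, 770 genes (8.61%) were higher and 753 (8.42%) were lower. The falls were the larger changes: 469 lower genes changed at least 2-fold and 75 at least 4-fold, against 188 and 8 higher genes. The median log2 change was 0.76 among the higher genes and -1.13 among the lower ones. CPM, the count of a gene scaled to a fixed total of counts in gene rows and by TMM factors, did not overlap between the groups for 423 genes in the higher direction (4.73% of tested genes) and 623 in the lower (6.97%). With library size as the only scaling, the median log2 change of all tested genes moved to -0.27, against -0.04 with TMM factors. The split then became 360 higher (4.03%) and 1416 lower (15.8%). In 1 fit of 81 libraries from 0 h to 36 h, which share an estimate of the spread and whose filter kept 15669 genes, 1 gene was higher (0.00638%) and 4 were lower (0.0255%).

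**Figure D1:**
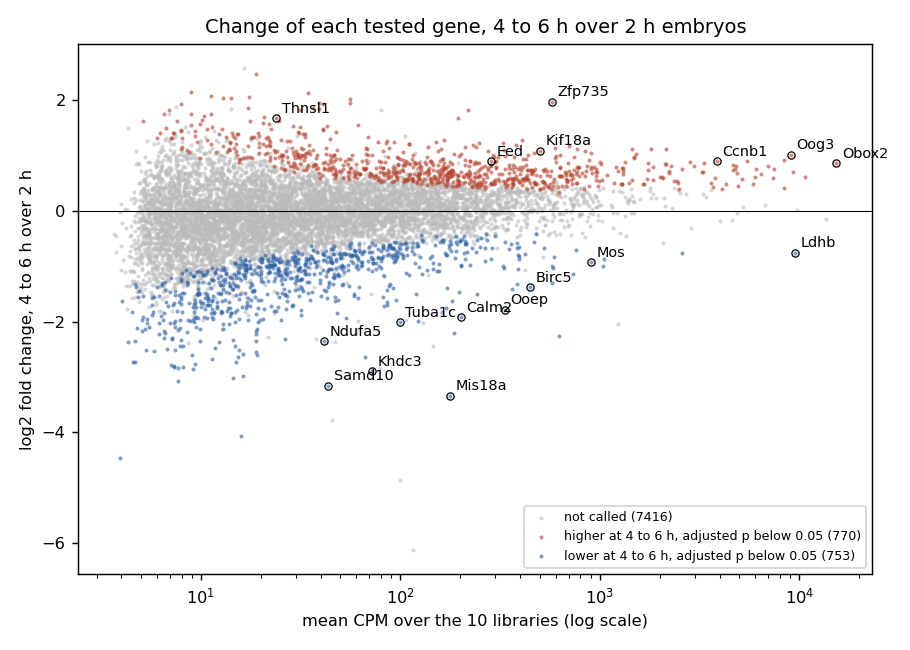
Each point is 1 of the 8939 tested genes; the horizontal axis is its mean CPM over the 10 libraries on a log scale and the vertical axis its log2 fold change, 4 to 6 h over 2 h. Red points mark the 770 higher genes, blue points the 753 lower genes and grey points the 7416 not called; circles mark genes described in the text, among them Mis18a at -3.34 and Zfp735 at 1.97.

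Several features of the libraries moved with the groups. Gene rows held between 932837 and 2365962 counts per library at 4 to 6 h and between 1624598 and 4291347 at 2 h. Library names begin with 703 for all 4 to 6 h libraries and for 2 h replicates 4 and 5, and with 702 for the deeper 2 h replicates 1, 2 and 3. Against the 703 libraries of 2 h alone, 18 genes were higher (0.2% of tested genes) and 60 lower (0.666%), and with all 10 libraries thinned to 1 depth 540 were higher (8.25%) and 634 lower (9.69%). The oocyte and 1-cell markers were high in both groups, with a summed level of 29116 to 35739 CPM at 4 to 6 h and of 26172 to 37284 CPM at 2 h. Sperm markers summed to 65.9 to 124.7 CPM at 4 to 6 h and 63.8 to 86.3 CPM at 2 h. Most of that was Odf2, at 52.2 to 118.7 CPM at 4 to 6 h and 49.8 to 75.9 CPM at 2 h. Tnp1, Tnp2, Smcp, Pgk2 and Spata3 had no count in either group. Blood and oviduct markers summed to 8.69 to 173 CPM at 4 to 6 h and 6.13 to 42.7 CPM at 2 h. The 173 CPM was 4 to 6 h replicate 2, where Lyz2 reached 157 CPM. Lyz2 had no count at 2 h.

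Markers of cumulus cells, the follicle cells that surround the egg, set 2 h replicates 1 and 2 apart. Of the 24 markers, Cyp19a1 and Serpine2 were abundant in every library, and the other 22 are counted here. Their summed level was 4.09, 15.2, 9.09, 3.61 and 2.32 CPM in the 4 to 6 h libraries, against 166, 1089, 20.6, 8.99 and 2.04 CPM in the 2 h libraries. Between 2 and 6 of the 22 had a count in each 4 to 6 h library, and between 3 and 20 in each 2 h library. Tnfaip6, Inhba and Fst had no count at 4 to 6 h. Without 2 h replicate 2, 528 genes were higher (5.97%) and 607 lower (6.86%). Against 2 h replicates 3, 4 and 5 alone, 218 were higher (2.46%) and 330 lower (3.72%). All 770 higher genes, and all lower genes that could be tested in each of these fits, kept their direction. These fits reuse libraries in which the genes were picked, so a kept direction is no separate support. Against 2 h replicates 3, 4 and 5 alone, 213 of the 770 higher genes and 320 of 728 lower genes were still called.

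The changes also followed base composition. Genes were put into 4 bins of equal size by the GC content of the longest transcript. In the lowest bin, 420 of 2233 genes were higher at 4 to 6 h (18.8%) and 62 lower (2.78%). In the highest bin, 36 of 2233 were higher (1.61%) and 378 lower (16.9%). The trend is visible per library. The lowest bin exceeded the highest by 0.18, 0.10, 0.62, 0.32 and 0.32 on the log2 scale in the 4 to 6 h libraries, and by -0.42, -0.40, -0.25, -0.42 and -0.10 in the 2 h libraries, as median deviations from the gene means. The 2 groups did not overlap in this tilt. When each library's own trend with GC content was taken out of the fit, 645 genes were higher (7.22%) and 527 lower (5.9%), 480 and 445 of them called the same way without that step. The lowest bin then held 190 higher genes and the highest 164. Whether the tilt belongs to the embryos or to the libraries was not tested.

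**Figure D2:**
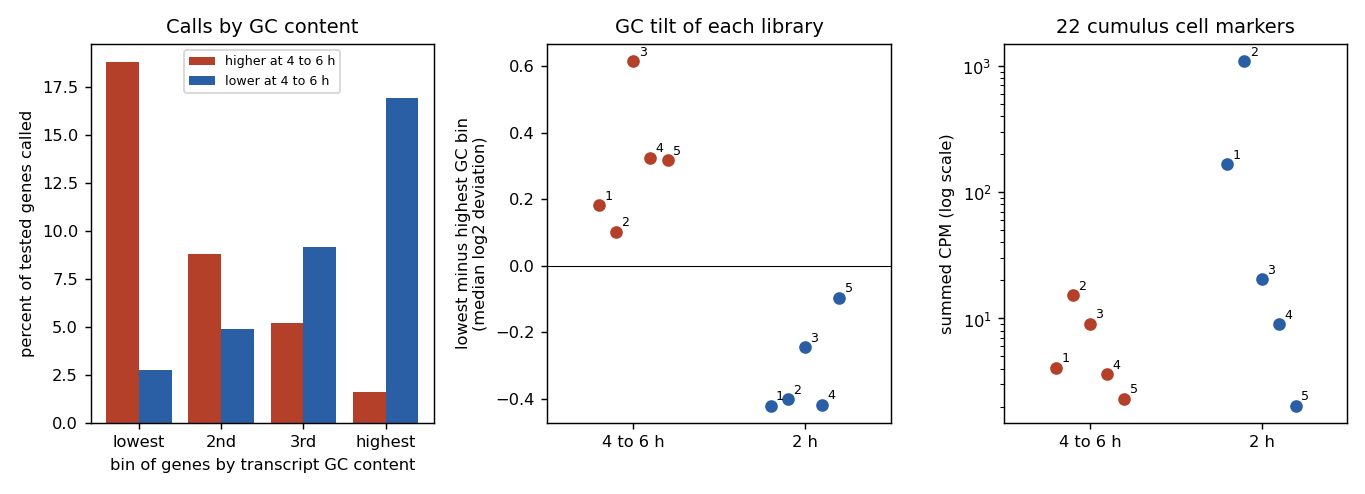
Left, the percent of tested genes called higher (red) and lower (blue) at 4 to 6 h in each of 4 bins of transcript GC content; middle, the GC tilt of each library; right, the summed CPM of 22 cumulus markers on a log scale. Points are libraries with their replicate numbers; the tilts of the groups do not overlap, and 2 h replicate 2 reaches 1089 CPM of cumulus markers.

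Genes are named first for the size of their change, among those called, without overlap, with a mean of at least 20 CPM in the higher group and with a full gene symbol. Among the lowest 10, Mis18a, needed to load the centromeric histone CENP-A, had 33.2, 19.8, 53.01, 27.7 and 18.6 CPM at 4 to 6 h, against 257, 216, 374, 332 and 445 CPM at 2 h. Every 4 to 6 h library was below every 2 h library by a wide margin, and the log2 change was -3.34 (SE 0.26, adjusted p = 5.5e-07, edgeR). It was also called against the 703 libraries of 2 h alone (adjusted p = 1.42e-05) and in 1 fit of 81 libraries (adjusted p = 0.00118). Samd10 had 8.69, 3.803, 3.79, 16.9 and 8.12 CPM at 4 to 6 h, against 70.01, 42.5, 81.4, 79.99 and 121.2 CPM at 2 h. Its groups did not overlap either, with a log2 change of -3.15 (SE 0.36, adjusted p = 4.23e-05, edgeR). Map1lc3a, the LC3 protein of autophagosomes, Trappc2l, a subunit of the TRAPP tethering complex, and Tmem39b fell as well, with log2 changes of -2.73, -2.58 and -2.65.

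A pair of mitochondrial intermembrane proteins, Chchd10 and Chchd2, fell less when 1 library was left out. Chchd10 had 2.56, 0.761, 2.27, 1.81 and 1.16 CPM at 4 to 6 h, against 17.2, 112.6, 5.53, 6.29 and 8.17 CPM at 2 h. Chchd2 had 2.04, 4.56, 3.79, 4.82 and 3.48 CPM at 4 to 6 h, against 21.3, 94.4, 11.6, 10.3 and 6.81 CPM at 2 h. In both, 2 h replicate 2, the library highest in cumulus markers, stood far above the rest. Without it the log2 change was -2.32 for Chchd10 (adjusted p = 0.00881) and -1.73 for Chchd2 (adjusted p = 0.0151), in place of -4.07 (adjusted p = 0.0398) and -2.98 (adjusted p = 0.0234) by the same test.

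Among the highest 10, Zfp735, a zinc finger gene, had 598, 929, 1352, 759.6 and 923 CPM at 4 to 6 h, against 245, 128.04, 249, 183 and 418 CPM at 2 h. The lowest 4 to 6 h library exceeded the highest 2 h library, and the log2 change was 1.97 (SE 0.29, adjusted p = 0.000815, edgeR). Thnsl1, a threonine synthase-like protein, had 39.9, 41.1, 34.8, 34.3 and 31.3 CPM at 4 to 6 h, against 10.2, 15.4, 10.8, 11.7 and 9.53 CPM at 2 h, narrow ranges that lay well apart. The other 8 of the 10 highest were Olfr214, an olfactory receptor, Lcp2, an adaptor of immune receptors, the pseudogenes Zfp813-ps and Zscan4-ps1, Vmn1r76, a vomeronasal receptor, Nxt2, an mRNA export factor, Zfp984 and Cpb1, a carboxypeptidase. Their log2 changes lay between 1.42 (Zscan4-ps1) and 1.87 (Olfr214). Receptor, zinc finger and Zscan4 genes have near-identical copies, so their counts may mix members.

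Messages of the metaphase II arrest moved in both directions. Of 41 tested genes for arrest and meiotic exit, 7 rose (17.1%) and 6 fell (14.6%), with a median log2 change of -0.06. Of all tested genes 8.61% rose and 8.42% fell, with a median of -0.04. Mos, the kinase that starts the MAP kinase cascade holding the egg in metaphase, had 668, 720.3, 464, 592 and 595 CPM at 4 to 6 h, against 1155, 956, 1070.3, 1365 and 1453 CPM at 2 h. All 4 to 6 h libraries were lower, with a log2 change of -0.93 (SE 0.15, adjusted p = 0.00068, edgeR). Mapk3, the ERK1 kinase downstream of it, had 119.6, 57.8, 43.9, 46.3 and 107.9 CPM at 4 to 6 h, against 229, 220.1, 328, 202 and 332 CPM at 2 h, also without overlap. Cdc25b, a phosphatase that activates CDK1, and Fzr1, an activator of the anaphase-promoting complex, fell with log2 changes of -2.84 and -2.12. Fbxo5 (EMI1) and Ube2c were the other 2 that fell.

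Ccnb1 rose; its protein, cyclin B1, is degraded at egg activation and made again for the first mitosis. It had 5775, 4009, 5981, 4405 and 4822 CPM at 4 to 6 h, against 2496, 2082, 2452, 2331 and 4494 CPM at 2 h. Of the 2 h libraries, replicate 5 alone reached into the 4 to 6 h range. The log2 change was 0.90 (SE 0.19, adjusted p = 0.00352, edgeR). Arpp19 and Mastl, which together restrain the phosphatase PP2A, the CDK partners Cks1b and Cks2, the complex subunit Anapc10 and Map2k1 (MEK1) rose too, with log2 changes of 0.76, 0.65, 0.69, 0.67, 0.84 and 0.50.

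Calcium release drives egg activation. None of 18 tested genes of that list rose and 5 fell (27.8%), with a median log2 change of -0.22. Of all tested genes 8.61% rose and 8.42% fell. Calm2, a calmodulin gene, had 110.9, 105.7, 50.7, 71.6 and 68.4 CPM at 4 to 6 h, against 169.6, 235, 416, 259 and 528 CPM at 2 h. The groups did not overlap, although the 2 h libraries were widely spread. The log2 change was -1.92 (SE 0.29, adjusted p = 0.000717, edgeR). Cd9, the egg membrane protein needed for sperm fusion, Camk2g, the kinase that triggers meiotic exit, the zinc transporter Slc39a6 and the calcium sensor Stim2 fell, with log2 changes of -1.35, -1.14, -0.85 and -0.79. Slc39a10, another zinc transporter, had a log2 change of 0.43 (adjusted p = 0.0537, edgeR), and Itpr1, the calcium release channel, one of -0.34 (adjusted p = 0.247).

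Among 34 tested genes for chromosomal passengers, the spindle checkpoint and separase control, 8 rose (23.5%) and 3 fell (8.82%), beside 8.61% and 8.42% of all tested genes. The list's median log2 change was 0.06 with TMM factors, but -0.04 with the GC trend removed and -0.17 with library size alone. With library size alone 4 rose and 9 fell, beside 4.03% and 15.8% of all tested genes. Birc5 (survivin), a passenger subunit, had 284, 203, 211, 282 and 232 CPM at 4 to 6 h, against 576, 588, 816, 600.4 and 682 CPM at 2 h. All 4 to 6 h libraries lay well below the lowest 2 h library, and the log2 change was -1.38 (SE 0.14, adjusted p = 1.32e-05, edgeR). Espl1, the separase, fell with a log2 change of -0.87, whereas Pttg1, the securin that inhibits it, rose. Pttg1 had 7720.0, 7099.9, 9250.2, 7059 and 6373 CPM at 4 to 6 h, against 4376, 4556, 5443, 4599 and 4001 CPM at 2 h, without overlap (log2 change 0.76, SE 0.13, adjusted p = 0.000968, edgeR). Kif18a, a kinesin that limits chromosome oscillation, and Mad2l1, the checkpoint protein MAD2, rose with log2 changes of 1.09 and 0.84. Kif2c, a microtubule depolymerase at centromeres, fell (log2 change -0.76), whereas the kinetochore subunits Ndc80 and Nuf2, the cohesin protector Sgo1 and the spindle proteins Tpx2 and Prc1 rose with log2 changes between 0.57 (Prc1) and 0.65 (Sgo1).

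DNA replication in the pronuclei follows soon after these hours. Of 53 tested replication genes 11 rose (20.8%) and 2 fell (3.77%), beside 8.61% and 8.42% of all tested genes. The median log2 change of the list was 0.09 with TMM factors and -0.13 with library size alone. With library size alone 5 rose and 4 fell, beside 4.03% and 15.8% of all tested genes. Tipin, a fork protection protein, had 836, 663, 937, 772 and 742 CPM at 4 to 6 h, against 428, 420.0, 534, 488 and 519.6 CPM at 2 h, a clear gap between the groups. Its log2 change was 0.78 (SE 0.13, adjusted p = 0.000968, edgeR). Rpa3, a subunit of the single-strand binding protein, Gmnn (geminin), which blocks relicensing, and Rrm2, a subunit of ribonucleotide reductase, rose with log2 changes of 0.81, 0.72 and 0.67. The origin recognition subunits Orc4, Orc5 and Orc6, the polymerase subunit Pole2, the clamp Pcna, Gins4 and Mcm9 rose with log2 changes between 0.46 and 0.74. Cdt1, the licensing factor that geminin binds, and Tk1, thymidine kinase, fell with log2 changes of -1.05 and -1.23. After the GC trend was removed, 8 of the 53 were higher and none lower, beside 7.22% and 5.9% of all tested genes. Rpa3 was then no longer called (adjusted p = 0.139, edgeR).

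**Figure D3:**
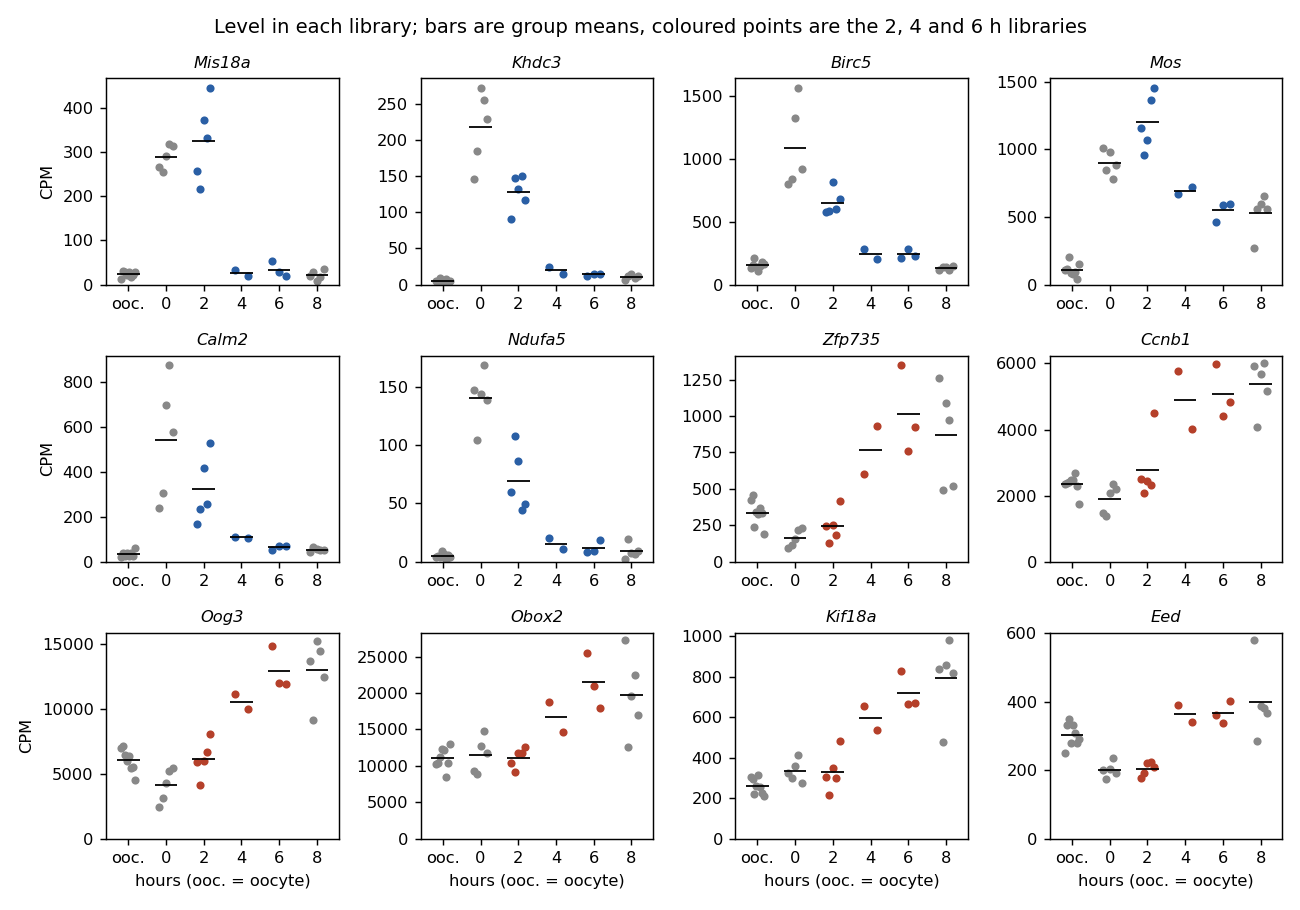
CPM of 12 genes in each library of the oocyte, 0, 2, 4, 6 and 8 h groups, in time order; bars are group means, and coloured points mark the 2, 4 and 6 h libraries. Mis18a, Khdc3, Birc5, Mos, Calm2 and Ndufa5 (blue) are low in oocytes, high at 0 h and 2 h and lower from 4 h, and Zfp735, Ccnb1, Oog3, Obox2, Kif18a and Eed (red) are higher from 4 h.

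Many nuclear-encoded subunits of the respiratory chain fell. Of 57 tested, 27 fell and none rose, 47.4% beside 8.42% of all tested genes, and the median log2 change was -0.97. Ndufa5, a complex I subunit, had 20.4, 10.6, 8.33, 9.03 and 18.6 CPM at 4 to 6 h, against 60.1, 107.5, 86.2, 44.5 and 49.7 CPM at 2 h. The groups were far apart, and 2 h replicate 2 was the highest library (log2 change -2.35, SE 0.32, adjusted p = 0.000261, edgeR). Ndufa7 of complex I had 3.07, 5.32, 0, 3.01 and 4.64 CPM at 4 to 6 h, against 20.6, 49.1, 29.0, 17.1 and 12.9 CPM at 2 h. Cox7b and Cox6b1 of cytochrome oxidase, Uqcrq of complex III and Atp5h and Atp5g3 of ATP synthase fell with log2 changes of -2.36, -1.56, -1.91, -2.14 and -2.05. The highest member was Cox5b at 0.43 (adjusted p = 0.278, edgeR). Without 2 h replicate 2, 17 fell and the median was -0.60, beside 6.86% of all tested genes lower in that fit. Against 2 h replicates 3, 4 and 5 alone 11 fell and the median was -0.62, beside 3.72% of all tested genes. Against the 703 libraries of 2 h alone 1 fell and the median was -0.44, beside 0.666%. With the GC trend removed, 19 fell and 2 rose, beside 5.9% and 7.22%.

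None of 10 tested genes of the mitochondrial genome was called in either direction by edgeR, and their median log2 change was 0.02 with TMM factors, -0.25 with library size alone, -0.35 with the GC trend removed and 0.45 against the 703 libraries of 2 h. They ran from -0.32 (mt-Nd6, adjusted p = 0.555) to 0.72 (mt-Atp6, adjusted p = 0.362). Cytosolic ribosomal proteins, of which 31 of 82 were tested, had a median log2 change of -0.81. Of them 7 were lower (22.6%) and 1 higher (3.23%), beside 8.42% and 8.61% of all tested genes. Rplp1, of the ribosomal stalk, averaged 22.04 ± 8.98 CPM at 4 to 6 h and 61.3 ± 7.43 CPM at 2 h (SD, n = 5 each; adjusted p = 0.00114, edgeR), and Rpl35 was the lowest at -1.99. Without 2 h replicate 2 the list's median was -0.39, with 5 lower and 1 higher, beside 6.86% and 5.97% of all tested genes. Rps27l, a variant that p53 induces in other cells, was the one that rose (log2 change 0.74). Ribosomal protein genes have many processed pseudogenes, so their counts are uncertain.

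In the cytoskeleton list, 6 tubulin genes were among those that fell. Of 48 tested genes 13 fell (27.1%) and 3 rose (6.25%), beside 8.42% and 8.61% of all tested genes, and the list's median log2 change was -0.42. Tuba1c, an alpha tubulin, had 45.5, 38.0, 38.6, 33.1 and 37.1 CPM at 4 to 6 h, against 189, 138.2, 143, 139.3 and 195 CPM at 2 h. Spread within each group was small beside the difference (log2 change -2.01, SE 0.18, adjusted p = 1.28e-06, edgeR). Tuba1a, Tuba1b, Tubb2a, Tubb2b and Tubb6 had log2 changes of -2.22, -2.001, -1.5003, -1.44 and -0.99, and tubulin genes are alike enough to share reads. Cfl1 (cofilin), Myh9, a myosin heavy chain, and the dynein light chains Dynll1 and Dynlrb1 fell as well. The actin capping subunits Capza1 and Capza2 and the ARP2 subunit Actr2 were the 3 that rose (Capza2, log2 change 0.94). Tmsb10, a thymosin, was the lowest member at -2.76 and rested on 2 h replicate 2, with 2.56, 1.52, 3.03, 4.21 and 0 CPM at 4 to 6 h, against 7.27, 50.9, 12.4, 6.29 and 5.45 CPM at 2 h. Without that library it did not have enough counts to be tested.

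The next list holds the subcortical maternal complex, a lattice of oocyte proteins that the embryo needs for its first cleavages, and related proteins. Of its 17 tested genes 5 fell (29.4%) and 5 rose (29.4%), beside 8.42% and 8.61% of all tested genes. The median log2 change of the list was -0.14, or 0.18 with the GC trend removed. In that fit 4 fell and 3 rose, beside 5.9% and 7.22% of all tested genes. Khdc3 (FILIA) had 25.04, 14.5, 12.1, 15.0 and 15.1 CPM at 4 to 6 h, against 91.3, 148, 132.3, 149.6 and 116.4 CPM at 2 h. No 4 to 6 h library came near a 2 h library, and the log2 change was -2.90 (SE 0.23, adjusted p = 5.5e-07, edgeR). Ooep (FLOPED) had 236, 138.4, 87.8, 134.2 and 142 CPM at 4 to 6 h, against 470.2, 671, 665, 372 and 445 CPM at 2 h, again without overlap (log2 change -1.79, adjusted p = 0.000148, edgeR). The core members Tle6 and Nlrp5 (MATER) fell with log2 changes of -1.31 and -0.87, and Uhrf1, also in the DNA methylation list, with one of -0.68. Those that rose were all related NLRP genes: Nlrp4f, Nlrp9a, Nlrp4b, Nlrp9c and Nlrp4a, with log2 changes of 0.89, 0.80, 0.76, 0.51 and 0.48. Nlrp4f averaged 1286 ± 149 CPM at 4 to 6 h and 719 ± 159 CPM at 2 h (SD, n = 5 each).

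Among 17 genes of the zona pellucida and secreted oocyte proteins, Zp1, Zp2 and Zp3, the coat glycoproteins, and Calr and Oosp2 fell, Oog3 and Oosp3 rose, and the median log2 change was -0.18. The shares were 29.4% lower and 11.8% higher, beside 8.42% and 8.61% of all tested genes. With the GC trend removed, 2 of the 17 were lower and 1 higher, beside 5.9% and 7.22% of all tested genes. Against the 703 libraries of 2 h none was called, beside 0.666% lower and 0.2% higher. Zp3 had 336, 207, 231, 282 and 334 CPM at 4 to 6 h, against 496, 425, 556, 529 and 505.3 CPM at 2 h, with every 4 to 6 h library below the lowest 2 h library (log2 change -0.80, adjusted p = 0.00206, edgeR; 0.109 with the GC trend removed). Oog3 had 11119, 9963, 14864, 11978 and 11906 CPM at 4 to 6 h, against 5923, 4166, 5972, 6707 and 8077 CPM at 2 h, without overlap (log2 change 1.01, SE 0.16, adjusted p = 0.000627, edgeR). Of the 15 oocyte markers, some of which these lists hold, 7 fell (46.7%) and 1 rose (6.67%). Astl, the protease that hardens the coat after fertilization, had a log2 change of -1.06 with an adjusted p of 0.0598 by edgeR.

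Regulators tied to genome activation moved both ways, with 5 of 21 tested genes higher (23.8%) and 6 lower (28.6%), beside 8.61% and 8.42% of all tested genes. The list's median log2 change was -0.21, but 0.14 with the GC trend removed and 0.07 against the 703 libraries of 2 h. The called genes of the oocyte homeobox family all rose. Obox2 had 18818, 14663, 25444, 20942 and 17940.5 CPM at 4 to 6 h, against 10336, 9223, 11807, 11736 and 12599 CPM at 2 h. The groups did not overlap, and Obox2 was among the 5 most abundant genes at 2 h (log2 change 0.87, SE 0.14, adjusted p = 0.000897, edgeR). Obox1, Obox5 and Obox7 had log2 changes of 0.76, 0.90 and 0.98, and these copies can share reads. Tbpl2, the oocyte TATA-binding factor, rose with one of 1.02. Tcstv1, Tcstv3, Taf4b, Yap1, Ctcf and Sp1 fell with log2 changes between -1.24 (Sp1) and -0.55 (Ctcf). Against 2 h replicates 3, 4 and 5 alone the list had 4 higher and 1 lower, beside 2.46% and 3.72% of all tested genes.

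Of 22 tested DNA methylation factors, 5 fell (22.7%) and 1 rose (4.55%), beside 8.42% and 8.61% of all tested genes, and the median log2 change was -0.55. With the GC trend removed 3 fell and 1 rose (median -0.31), beside 5.9% and 7.22% of all tested genes. Against the 703 libraries of 2 h none was called (median -0.39), beside 0.666% lower and 0.2% higher. Tet3, the oxidase that acts on paternal DNA in the zygote, had 493, 447, 469, 341 and 317 CPM at 4 to 6 h, against 918, 714, 830.2, 759 and 599 CPM at 2 h, and all 4 to 6 h libraries were lower (log2 change -0.84, SE 0.15, adjusted p = 0.00129, edgeR). Dnmt3l, Trim28, Uhrf1 and Zfp57 fell with log2 changes of -1.32, -0.85, -0.68 and -0.56. Dppa3 (STELLA), which shields the maternal genome from TET3, was the one that rose. Dppa3 had 6429, 5407, 7429.8, 5336 and 4916 CPM at 4 to 6 h, against 2865, 3201, 4009.7, 3269.6 and 3794 CPM at 2 h, without overlap (log2 change 0.83, SE 0.14, adjusted p = 0.000844, edgeR).

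In the list for histone exchange and oocyte chromatin, 5 of 29 tested genes rose (17.2%) and 3 fell (10.3%), with a median log2 change of -0.11. Of all tested genes 8.61% rose and 8.42% fell. With library size alone 4 rose and 9 fell, beside 4.03% and 15.8% of all tested genes. With the GC trend removed 4 rose and 5 fell, beside 7.22% and 5.9%. The histone chaperones Asf1a and Asf1b rose with log2 changes of 0.73 and 0.71, and so did Rbbp7 and Dek. Of the genes for the replacement histone H3.3, H3f3a fell (log2 change -0.70) while H3f3b rose (0.70), and Ubn1, a subunit of the HIRA chaperone that deposits it, fell (-0.88). H2afx was the lowest at -1.15.

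Factors that lengthen, shorten or guard poly(A) tails changed in 12 of 57 tested cases, 8 lower (14.0%) and 4 higher (7.02%), beside 8.42% and 8.61% of all tested genes (median log2 change -0.10). With library size alone 18 were lower and 2 higher, beside 15.8% and 4.03% of all tested genes. Cnot7, a catalytic subunit of the CCR4-NOT deadenylase, had 2801, 2892, 3018, 3138 and 2391 CPM at 4 to 6 h, against 1602, 1102, 1728, 1522 and 2433 CPM at 2 h. Only 2 h replicate 5 reached into the 4 to 6 h range (log2 change 0.82, SE 0.16, adjusted p = 0.00252, edgeR). Btg4, which joins the deadenylase to its targets in the egg, the poly(A) polymerase Papolg and Dazl rose with log2 changes of 0.71, 0.84 and 0.54. Cnot6l, another catalytic subunit, fell with one of -0.42. Zar1, an oocyte RNA-binding protein, had 691, 752, 407, 787 and 764 CPM at 4 to 6 h, against 1462, 1107, 1251, 1938 and 1273 CPM at 2 h, without overlap (log2 change -0.996, adjusted p = 0.00155, edgeR). Mettl14, part of the m6A methyltransferase, had a log2 change of -2.51 (adjusted p = 0.000261, edgeR), and Pabpc1l, Ybx2, Cpeb3, Lsm14b and Pabpc4 fell with log2 changes between -1.36 (Pabpc1l) and -0.56 (Pabpc4).

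The remaining lists are described more briefly, and their counts stand beside 8.61% higher and 8.42% lower among all tested genes. Of 33 translation initiation factors, 6 rose and 5 fell (median log2 change 0.04 with TMM factors and -0.19 with library size alone). Eif2a rose with a log2 change of 0.93, and Eif3l, at -2.0005, lost its call without 2 h replicate 2 (adjusted p = 0.19). Of 37 proteasome genes, 1 rose and 6 fell (median -0.32), with Psmb4 at -2.001. Of 50 spliceosome genes, 5 rose and 4 fell (median -0.05), with Lsm4 at -2.31 and Srsf5 at 0.98. Of 54 nuclear envelope and import genes, 3 rose and 5 fell (median -0.04), with Ranbp1 at -1.37 and Kpna3 at 0.63.

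Cohesin and condensin genes gave 4 higher and 1 lower of 26 (median 0.07; -0.17 with library size alone), among them the cohesin acetyltransferases Esco1 and Esco2, at 0.79 and 0.80, and Top2b at 1.34. Histone-modifying enzymes gave 3 higher and 5 lower of 42 (median -0.24). Eed, a core Polycomb subunit, had 389, 341, 361, 339 and 401 CPM at 4 to 6 h, against 176, 191, 219.7, 224 and 208 CPM at 2 h, with tight groups and no overlap (log2 change 0.90, adjusted p = 0.000518, edgeR). Ubiquitin-conjugating enzymes gave 2 higher and 4 lower of 30 (median -0.31), and genes of transport into the endoplasmic reticulum 3 higher and 7 lower of 34 (median -0.22), with Ssr4 at -1.92 and Stt3a at 0.82.

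In the glycolysis list, Ldhb, a lactate dehydrogenase subunit and one of the 5 most abundant genes at 2 h, had 9885, 6309, 4034, 6495 and 8038 CPM at 4 to 6 h, against 10795, 10648, 13586, 12938 and 12749 CPM at 2 h, and Mpc1, a mitochondrial pyruvate carrier, rose with a log2 change of 1.03. They were the only 2 of 15 called (median -0.15; Ldhb -0.75, adjusted p = 0.00718, edgeR). Stress and handling genes, read as a sign of RNA or embryo quality, gave none higher and 3 lower of 15 (median -0.13): Atf4, Gclm and Dnaja1. The other 3 most abundant genes at 2 h were Zbed3, H1foo and Tcl1, with log2 changes of -0.14 (adjusted p = 0.509), 0.03 (adjusted p = 0.917) and 0.62 (adjusted p = 0.00469) by edgeR; that of Zbed3 changed sign with the GC trend removed, and that of H1foo with library size alone.

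**Figure D4:**
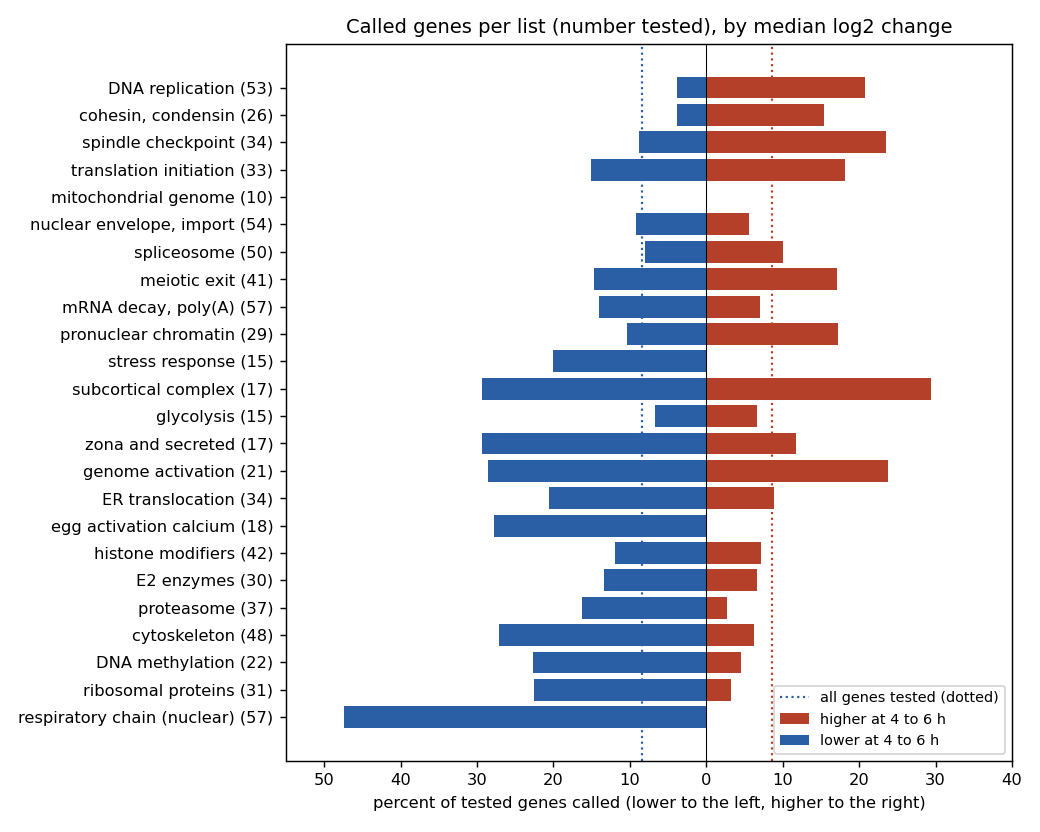
Percent of the tested genes of each list called lower (blue, to the left) and higher (red, to the right) at 4 to 6 h, with the number tested in brackets and lists ordered by median log2 change. The dotted lines mark the share among all tested genes, 8.61% higher and 8.42% lower; the respiratory chain list reaches 47.4% lower.

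Counts within lists shrank when libraries were left out, as did calls over all tested genes. Against 2 h replicates 3, 4 and 5 alone, 2.46% of all tested genes were higher and 3.72% lower. In that fit 2 genes rose and 4 fell in the meiotic exit list, 4 and 3 in the checkpoint list, 4 and 1 in replication, 2 and 3 in pronuclear chromatin, 1 and 3 in DNA methylation, 2 and 3 in poly(A) control, 1 and 7 in the cytoskeleton, 2 and 4 in the subcortical complex and 1 and 3 in the egg coat list. The same fit gave 1 and 3 among ribosomal proteins, 3 and 2 among initiation factors, 0 and 3 among proteasome genes, 1 and 1 each among histone modifiers, glycolysis and reticulum genes, 0 and 2 among nuclear envelope genes, 1 and 2 among spliceosome genes, 0 and 1 among conjugating enzymes and 3 and 0 among cohesin genes. Against the 703 libraries of 2 h alone, no list had more than 1 gene higher or more than 4 lower, beside 0.2% and 0.666% of all tested genes. With the GC trend removed, 3 initiation factors rose and none fell, 3 histone modifiers rose and none fell, and 2 poly(A) factors rose and 5 fell. Of all tested genes 7.22% were then higher and 5.9% lower. Without 2 h replicate 2, 5 genome activation genes rose and 4 fell, beside 5.97% and 6.86% of all tested genes. In the lists of cumulus, sperm and blood or oviduct markers 2, 1 and 1 genes could be tested, and none was called.

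Transcript structure was compared over the protein-coding genes, using 1 annotated transcript per gene from GENCODE M21 (GRCm38), found for 596 of 598 higher, 659 of 662 lower and 7484 of 7520 tested genes. The coding length had a median of 1287 bases in higher genes and 1053 in lower genes, beside 1398 in all tested genes, and 20.8% of lower genes coded fewer than 500 bases, beside 9.25% of all tested genes. The 3′ UTR GC content had a median of 37.2% in higher genes and 46.0% in lower genes. The polyadenylation element was searched on the transcribed strand as TTTTAT or TTTTAAT in the last 100 bases of 3′ UTRs at least that long. It was found in 186 of 565 higher genes (32.9%), 98 of 617 lower genes (15.9%) and 1670 of 7128 tested genes (23.4%). The element is AT-rich, so it was also counted within 4 bins of 3′ UTR GC content. In the lowest bin it was found in 36.5% of 285 higher and 20.0% of 80 lower genes, beside 29.5% of 1737 tested. The difference was smaller in the next bin, with 25.9% of higher, 20.6% of lower and 23.9% of tested genes. In the bin after it the shares were 32.2%, 16.2% and 23.0%, and in the highest bin the element was in 39.3% of 28 higher and 12.7% of 276 lower genes, beside 17.4% of 1786 tested. The signal AATAAA was in 72.9% of higher, 66.6% of lower and 68.9% of tested windows, and the Pumilio element TGTANATA in 5.31%, 5.67% and 5.68%. These are matches of letters at annotated ends, not at ends measured in these embryos.

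The 3′ ends of the 6 higher and 6 lower named genes with the smallest adjusted p and a long enough 3′ UTR are shown as examples from both directions. Each line gives 30 bases, 5′ to 3′ on the transcribed strand, from just before the last element in the window, or the last bases of the transcript where there is no element or it lies too near the end. Capitals mark the polyadenylation element in the forms searched, and AATAAA. The higher genes come first.
Thnsl1: atttgtttcagtagacttagaaaattatcc
Eed: tatTTTTATtgtgatggaaacaaactggaa
Obox7: tttTTTTATtgttagagaatatgttcatta
Capza2: ttctgaagtaaatactaaataagtaactaa
Oog3: tAATAAAtgtgttaactttgTTTTATtttt
Zfp735: ctgaattatcAATAAAtatattataactgt
The lower genes follow.
Khdc3: ttaaagtattctAATAAAaaaaaaattgca
Mis18a: catTTTTATaataagagAATAAAgaattca
Tuba1c: gtcAATAAAggtgtttccgttgtaagttgc
Birc5: gtaacggAATAAAatcacttgaaaaagtgg
Samd10: actTTTTATatatactctgacaaaaaaaaa
Ooep: aactcaggaccacaggctatgagtagcata
In GRCm38 these stretches of 3′ UTR lie at chr2:21214980-21215009 (plus strand) for Thnsl1, chr7:89954694-89954723 (minus strand) for Eed, chr7:14665940-14665969 (plus strand) for Obox7, chr6:17666943-17666972 (plus strand) for Capza2, chr4:144157557-144157586 (minus strand) for Oog3 and chr11:73713769-73713798 (plus strand) for Zfp735. For the lower genes they lie at chr9:73104409-73104438 (plus strand) for Khdc3, chr16:90719329-90719358 (minus strand) for Mis18a, chr15:99038081-99038110 (plus strand) for Tuba1c, chr11:117855703-117855732 (plus strand) for Birc5, chr2:181595243-181595272 (minus strand) for Samd10 and chr9:78376109-78376138 (minus strand) for Ooep. Eed, Obox7 and Oog3 hold an element in the window, as do Mis18a and Samd10 among the lower genes, and the other 7 do not.

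Most of the lower genes had been higher at 0 h than in oocytes, in libraries outside the comparison. Between 8 oocyte libraries and the 0 h libraries, 637 of the 753 lower genes (84.6%) had a higher mean log2(CPM + 1) at 0 h than in oocytes, beside 4378 of all 8939 tested genes (48.98%). The median difference, 0 h minus oocyte, was 1.07 for lower genes, -0.35 for higher genes and -0.02 for all tested genes. Khdc3 averaged 4.45 ± 2.48 CPM in oocytes (SD, n = 8), 218 ± 51.5 at 0 h, 127.5 ± 24.3 at 2 h, 16.3 ± 5.01 at 4 to 6 h and 10.46 ± 3.12 at 8 h (n = 5 each). Mis18a averaged 24.2, 289, 325, 30.4 and 21.9 CPM in the same groups, and Mos 110.5, 899, 1199.9, 608 and 527 CPM. Khdc3 and Mis18a were low in oocytes, high at 0 h and 2 h and low again from 4 h. Mos fell from 4 h but stayed above its oocyte level at 4 to 6 h and 8 h. The share above 0 was between 83.1% and 95.2% in every GC bin of the lower genes, beside 47.9% to 50.5% of all tested genes. The GC tilt had a median of -0.35 in oocytes and of -0.43 in 0 h libraries, and its part in this difference was not tested. Oocytes were processed as a separate batch, so stage and batch cannot be told apart in this difference, and no test of it was run.

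The same genes were followed in 5 embryos at 8 h and 5 at 0 h, which share no library with the comparison. There 2913 of 8225 tested genes were called (35.4%), 1346 of them higher at 8 h (16.4%) and 1567 lower (19.1%), by edgeR. Of the 758 genes higher at 4 to 6 h that could be tested, 495 were higher and 5 lower at 8 h than at 0 h. Of 718 lower genes, 492 were lower and 2 higher. Among the 8042 genes tested in both, 16.7% were higher and 19.0% lower at 8 h. The shared genes made up 65.3% of the higher and 68.5% of the lower genes of the earlier interval, and 37.0% and 32.2% of those at 8 h. Across these 8042 genes, which share each library's depth and GC tilt and are not independent replicates, the log2 changes of the pair of comparisons had a Pearson r of 0.60. The 8 h libraries shared the GC tilt, at 0.88, 0.01, 0.49, 0.42 and 0.19, against -0.46, -0.56, -0.45, -0.28 and -0.34 at 0 h, and the 22 cumulus markers summed to 4.41, 2639, 223, 355 and 467 CPM in the 8 h libraries, against 15.03, 5.86, 16.7, 162 and 729 CPM in the 0 h libraries. Blood and oviduct markers summed to 6.17, 70.7, 10.2, 8.50 and 121.9 CPM at 8 h, against 2345, 402, 41.3, 43.3 and 56.9 CPM at 0 h. The same 0 h libraries enter the comparison with oocytes above. All 0 h libraries also share the start of their names with the deeper 2 h libraries, and no 8 h library has that start. Library name and time therefore cannot be told apart between 8 h and 0 h, and the part of library names in the shared calls was not tested. With the GC trend removed from both fits, 407 of 636 higher genes and 363 of 510 lower genes were called the same way at 8 h. Over all 8225 tested genes that 8 h fit called 1423 higher and 1322 lower. Without 2 h replicate 2 and 8 h replicate 2, the highest in cumulus markers in their groups, 389 of 525 higher and 431 of 590 lower genes were called the same way, with the other libraries kept. Over all 8449 tested genes the 8 h fit without 8 h replicate 2 called 1469 higher and 1688 lower.

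**Figure D5:**
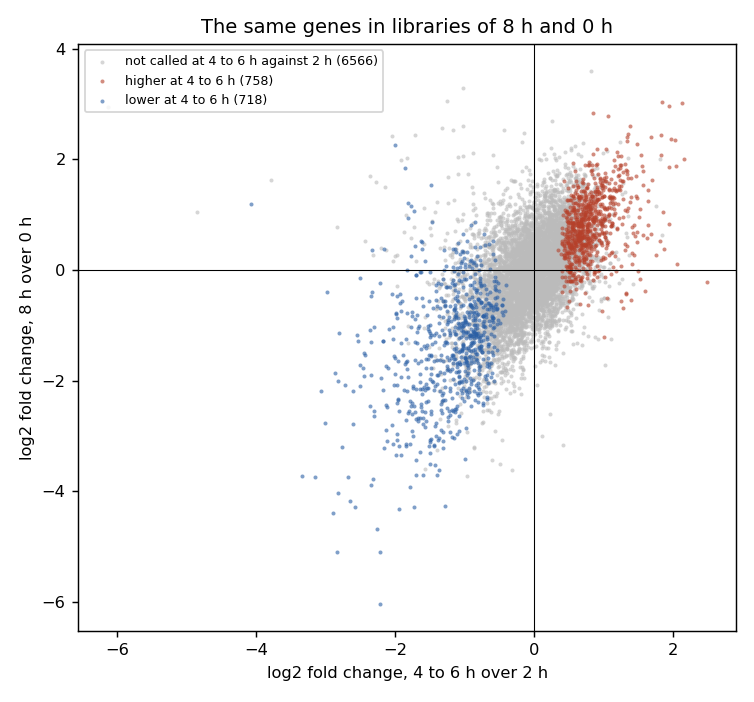
Each point is a gene tested in both comparisons; the horizontal axis is its log2 fold change at 4 to 6 h over 2 h and the vertical axis that at 8 h over 0 h. Most of the 758 genes higher at 4 to 6 h (red) lie above 0 at 8 h, and most of the 718 lower genes (blue) lie below.

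Single members are set side by side here for the 2 intervals. Khdc3, Birc5, Calm2 and Ooep fell in both, with log2 changes at 8 h of -4.39, -3.07, -3.34 and -3.92 over 0 h, beside -2.90, -1.38, -1.92 and -1.79 at 4 to 6 h over 2 h. Pttg1, Dppa3 and Rpa3, higher at 4 to 6 h, had 8 h log2 changes of 0.32, 0.16 and 0.44 (adjusted p = 0.138, 0.597 and 0.102, edgeR). In the respiratory chain list, 32 of 62 tested genes were lower at 8 h and 1 higher, beside 19.1% and 16.4% of all 8225 tested genes. The size of these changes was not tested between intervals.

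Within the group, 6 h libraries were set against 4 h libraries. None of 8348 tested genes was called by edgeR (0.0%), 328 had an unadjusted p below 0.05, and DESeq2 called 1. With 3 libraries against 2, a p that misses the threshold does not show equal levels. The median log2 difference from 2 h was 0.62 at 4 h and 0.74 at 6 h among the higher genes, and -0.99 at 4 h and -1.23 at 6 h among the lower genes, all of them picked for the pooled change. The 6 h libraries alone called 706 genes higher (7.3%) and 646 lower (6.68%) against 2 h, and the 4 h libraries alone 9 higher (0.0837%) and 16 lower (0.149%).

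Repeat families were measured in rows of their own, scaled by the gene rows. Of 382 tested, 81 were higher at 4 to 6 h (21.2%) and 3 lower (0.785%), but with library size alone 15 were higher and 3 lower. The endogenous retrovirus interior MMERVK9C_I-int averaged 163 ± 2.85 CPM at 4 to 6 h and 93.3 ± 12.2 CPM at 2 h (SD, n = 5 each; log2 change 0.87, SE 0.12, adjusted p = 1.52e-05, edgeR). CPM did not overlap between the groups for 32 families in the higher direction (8.38%) and 2 in the lower (0.524%). Retroviral RLTR14-int and RLTR40 rose with log2 changes of 0.94 and 0.90, without overlap, and were also called with library size alone. The lower families were RLTR4_MM-int, RLTR4_Mm and L1ME2z, at -0.71, -0.67 and -1.06. Without 2 h replicate 1, 53 families were called, and 55 without replicate 2. Copies of a family lie in and near genes, so these rows may hold reads of host transcripts, whose part was not tested.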

How the data were processed

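RNA was measured in single mouse embryos. The deposited values were treated like expected counts per gene or repeat family, since they are not scaled and not all whole: 28.4% of nonzero gene values and 70.6% of nonzero repeat values were not whole within 1e-06. How shared reads were divided is not given in the sources used here. Per the submitters' processing notes, Trimmomatic 0.39, STAR and featureCounts were used with mm10. The annotation, the options and the use of strand are not given in the sources used here, so reads of antisense partners cannot be told apart.

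Expected counts were rounded and tested with edgeR 4.0.16 in R 4.3.3: filterByExpr, TMM factors, robust quasi-likelihood F test, Benjamini-Hochberg threshold of 0.05. Each comparison was fitted on its own libraries. CPM use TMM factors over all 96 libraries and gene rows alone. Standard errors are the log2 change divided by the square root of F. Of the gene IDs, 55141 matched GENCODE M21 without the version. The scripts were tested on simulated data.

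Which libraries, lists and naming rule to use was decided with earlier results of these data known. Genes were named if they were among the 10 highest or 10 lowest log2 changes that were called, did not overlap and had a mean of at least 20 CPM in the higher group, leaving out symbols of Gm and digits or ending in Rik; if they had 1 of the 3 smallest adjusted p or the highest or lowest change of a list; if they were called between 6 h and 4 h; or if they were among the 5 most abundant at 2 h. Other called list members are named to complete the counts. Some genes that the rule names are not reported here. The lists cover egg activation calcium, meiotic exit, spindle checkpoint, DNA replication, pronuclear chromatin, DNA methylation, mRNA decay and poly(A) control, ribosomal proteins, translation initiation, proteasome, respiratory chain, mitochondrial genome, zona and secreted proteins, subcortical complex, genome activation, nuclear envelope, spliceosome, ubiquitin conjugation, cytoskeleton, cohesin and condensin, histone modifiers, glycolysis, stress response, endoplasmic reticulum, and markers of oocyte, cumulus, sperm, and blood and oviduct.

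Alternatives were DESeq2 1.42.0, other scalings and filters, counts rounded down, a replicate block, each library left out, the hours or library names apart, and 1 fit of 81 libraries. Thinning to 932837 counts, the 702 libraries alone, the 2 h libraries low in cumulus markers and the removal of each library's GC trend were chosen after seeing the data. No columns were left out for want of a sample.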

Additional observations from a re-analysis of the deposited data

Results flagged for a closer look

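In 21 of 198 groups of 5 libraries, 1 library stood far from the other 4, by Dixon's test at its 95% value. Chance gives about 1 in 20, here about 10. Of the 21, 6 were high values in 2 h replicate 2: 1089 CPM summed over the 22 cumulus markers, 112.6 CPM of Chchd10, 94.4 CPM of Chchd2, 39.0 CPM of Eif3l, 43.3 CPM of Ube2m and 50.9 CPM of Tmsb10. Without that library Chchd10 and Chchd2 were still called, Eif3l (adjusted p = 0.19) and Ube2m (adjusted p = 0.0886, edgeR) were not, and Tmsb10 could not be tested.

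In the 4 to 6 h group, replicate 1, labelled 4 h, was high in Khdc3 at 25.04 CPM, in Cd9 at 60.8 CPM and in Lsm4 at 18.4 CPM. Replicate 2, also labelled 4 h, was high in Lcp2 at 100.4 CPM. It also had the highest sum of blood and oviduct markers in its group (173 CPM), whose part in Lcp2 was not tested. Replicate 3, labelled 6 h, was high in Rps27l at 710.3 CPM and Snrpb2 at 800.4 CPM and low in Mettl14 at 2.27 CPM and Zar1 at 407 CPM. Replicate 5, also labelled 6 h, was high in Zscan4-ps1 at 76.6 CPM and low in Mpc1 at 60.3 CPM.

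In the 2 h group, replicate 1 was high in Tmem39b at 50.6 CPM, replicate 3 in Rpa3 at 254 CPM, and replicate 5 in Zfp813-ps at 206 CPM, Ccnb1 at 4494 CPM and Mettl14 at 42.2 CPM.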

How the results depend on the processing

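The count of called genes in 4 to 6 h against 2 h was 1523. It was between 1172 and 1875 with DESeq2, either other scaling, both other filters, counts rounded down, the replicate block (1382), the 6 h libraries alone, thinning, the 702 libraries of 2 h and the GC trend removed. It was 548 (218 higher and 330 lower) against the 2 h libraries low in cumulus markers, 78 against the 703 libraries of 2 h, 25 with the 4 h libraries alone and 5 (1 higher and 4 lower) in 1 fit of 81 libraries, and the cause of these 4 counts was not tested. Leaving out 1 library gave 1044 to 1750. Whether the replicate numbers pair embryos is not given by the labels. Same-numbered libraries of 4 to 6 h and 2 h correlated between -0.11 and 0.12, and replicate 5 alone correlated best with its own number. At 8 h against 0 h they correlated between -0.02 and 0.21, and replicates 1, 4 and 5 correlated best with their own number. Such correlations cannot show whether a number marks a shared mother. Between 6 h and 4 h, 15 genes were called without a filter (6 higher and 9 lower), 1 by DESeq2 and 0 to 4 without 1 library. The 8 h count of 2913 stayed between 2486 and 3157. Repeat families called went to 18 with library size alone, and to 53 to 94 without 1 library.

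No call of the 98 named genes changed sign in the 25 settings, which reuse libraries of the comparison. Of 2418 pairs of gene and setting, 377 were no longer past the threshold, 96 of them in the fit of 81 libraries. Genes that were not called changed sign as follows. Against the 703 libraries mt-Nd6 had a log2 change of 0.26, Tpi1 of 0.75 and H1foo of -0.20. Against the libraries low in cumulus markers Tpi1 had 0.42 and H1foo -0.11. Zbed3 had 0.21 with the GC trend removed. H1foo had -0.20 with library size alone, -0.015 with the stricter filter, -0.048 after thinning and -0.062 to 0.10 without 1 library. Ovgp1 had -0.14 with library size alone, -0.35 with the 4 h libraries alone, -0.43 against the 702 libraries and -0.15 to 0.50 without 1 library.

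Embryos sharing a mother, the letter b in the titles of all 4 to 6 h libraries and of no 2 h library, and time cannot be told apart here. Depth limits what can be seen of genes with few counts.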

Other observations

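Gene classes outside the lists also moved. Of 300 tested lincRNA genes, 57 were higher at 4 to 6 h (19.0%) and 7 lower (2.33%), with a median log2 change of 0.37, beside 8.61% and 8.42% of all tested genes. With library size alone 30 were higher and 13 lower, beside 4.03% and 15.8% of all tested genes. Of 162 genes whose symbol is Zfp and a number, zinc finger genes, 23 were higher and 5 lower, with a median of 0.15, or -0.08 with library size alone. At 8 h against 0 h, 55 such genes were higher and 14 lower. Of 24 tested vomeronasal and olfactory receptor genes, which sensory neurons use, 6 were higher and 1 lower, with a median of 0.83. Mitochondrial ribosomal proteins, Mrpl and Mrps, had 2 higher and 7 lower of 58, with a median of -0.20. Of 570 processed pseudogenes, 65 were higher and 62 lower, and their reads may come from parent genes.

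Some of the largest estimated falls were not called, and these genes were chosen after their values were seen. Ephx2, a soluble epoxide hydrolase, had 1.02, 9.89, 0, 3.01 and 3.48 CPM at 4 to 6 h, against 126.9, 991, 8.43, 8.09 and 0 CPM at 2 h (log2 change -6.13, adjusted p = 0.0887, edgeR). Nupr1, a stress-induced nuclear protein, had 0, 12.2, 1.51, 18.7 and 0 CPM at 4 to 6 h, against 76.8, 872, 7.90, 2.25 and 0 CPM at 2 h (adjusted p = 0.148, edgeR). Tceal9 had a log2 change of -3.78 (adjusted p = 0.123, edgeR). In Ephx2 and Nupr1 the high values stood in 2 h replicates 1 and 2, the libraries highest in cumulus markers, whose part in them was not tested. Without replicate 2 the log2 changes were -3.41, -1.70 and -1.51 for the 3 genes.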
